A study of Mus musculus with 6 samples.

Results

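The genes described here are the 4 Notch receptors of the mouse, Notch1 to Notch4, and 6 ligands or ligand-like genes, Dll1, Dll3, Dll4, Jag1, Jag2 and Dlk1. They were chosen by gene symbol among the array probes that the annotation pairs with exactly 1 gene. Each of the 10 genes had 1 such probe, out of 14411 single-gene probes for 13840 genes and 33012 probes in all, so no choice between probes was needed. RNA came from presomitic mesoderm at embryonic day 10.5, the strip of caudal mesoderm that is cut into somites as the body axis lengthens. The tested embryos were Nrarp knockouts, in which LacZ stands in place of the Nrarp coding sequence after homologous recombination, and they were compared with wildtype littermates from crosses between heterozygous parents. The arrays were one-colour, 3 for each genotype with the numbers 1 to 3, and 12 presomitic mesoderms were collected per genotype. The labels do not say how the pieces were shared out among the arrays, so the spread behind each p-value may be technical and not that of separate embryos. The series relates Notch signalling to the pace of the segmentation clock and to the number of vertebrae.

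A Notch receptor is a membrane protein that is activated by a ligand on a neighbouring cell. Ligand binding lets an ADAM protease and then gamma-secretase cut the receptor, and the freed intracellular domain enters the nucleus and turns on target genes with the DNA-binding protein RBPJ. Nrarp, itself a Notch target, encodes an ankyrin-repeat protein that binds the intracellular domain and limits its activity. In the mouse presomitic mesoderm, Notch1 and Dll1 are known to be required for regular segmentation. Dll3 is needed there too, although its protein stays largely inside the cell and does not activate Notch on neighbouring cells. Dll4 and Notch4 are best known from the endothelium, Notch3 from the mural cells of vessels, and Jag1 and Jag2 from vessels, the inner ear and the limb bud ridge. Dlk1 is an imprinted gene whose protein resembles the Delta ligands but lacks the domain by which they bind Notch.

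The submitters had scaled the intensities, and the array medians were 0.981 to 0.993, so a value of about 1 is the middle of an array. The Nrarp probe read 14.3, 42.5 and 23.3 on knockout replicates 1 to 3, against 318, 429 and 448 on wildtype replicates 1 to 3. This checks the genotype labels only if the probe lies in the replaced sequence, which the sources used here do not give. All 10 measured presomitic mesoderm markers, among them Tbx6, which specifies this tissue, exceeded the array median on every array, with summed intensities of 1156 to 1259 in knockout and 1069 to 1267 in wildtype. The replicate 1 arrays of both genotypes stood apart from the other 4. Dividing the 75th by the 10th percentile gave 56.9 for the knockout and 42.7 for the wildtype array, against 12.4 to 16.0 on the arrays of replicates 2 and 3. Values are therefore given by array, and each genotype difference also within replicates.

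None of the 10 receptor and ligand genes passed the test between knockout and wildtype. The test was limma's moderated fit of log2 intensity over all 33012 probes with Benjamini-Hochberg adjustment at a threshold of 0.05, and it called 0 probes (0% of those tested). The same fit with a block for the replicate number called 2 probes (0.00606%), neither of them a receptor or ligand. An unadjusted p under 0.05 was reached by 0 of the 10 genes in both fits, against 0.657% of all probes without and 3.75% with the block. The intensities of the 2 genotypes overlapped for all 10 genes, whereas they did not overlap for 3.78% of all probes. Of the 10 log2 differences, 7 lay above and 3 below 0 (median 0.14), and over all probes the median was -0.01 and 49.1% were positive. These counts do not show that the genes were unchanged, and the intervals given below show which differences the arrays could have missed. In tissue extracts, fewer cells of a type and less RNA per cell cannot be told apart.

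**Figure D1:**
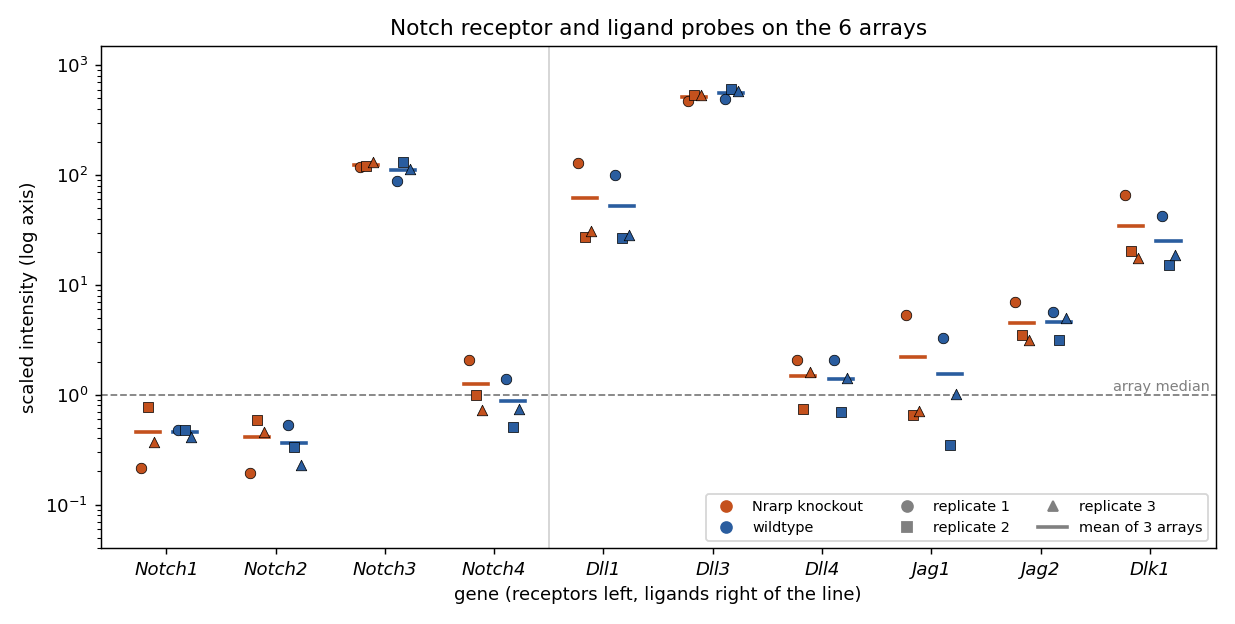
Scaled intensity (log axis) of the 4 receptor and 6 ligand probes on each array, knockout left of wildtype for each gene, with the marker shape giving the replicate number and a short line the mean of 3 arrays. Dll3 lies between 471 and 605 on all 6 arrays, Dll1, Jag1 and Dlk1 are highest on the replicate 1 arrays of both genotypes, and Notch1 and Notch2 lie under the array median on every array.

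Among the receptors, Notch3 alone had a bright probe on all 6 arrays. Notch3 (probe 402835) read 119, 121 and 131 on knockout replicates 1 to 3, against 89.0, 132 and 114 on wildtype replicates 1 to 3. These readings lay between percentiles 94.0 and 96.1 of their arrays, and both the lowest and the highest belonged to wildtype. The means were 124 ± 6.71 in knockout and 112 ± 21.8 in wildtype (SD, n = 3 each), a log2 difference of 0.16 (SE 0.245). The 95% interval of the ratio of knockout to wildtype reached from 0.754 to 1.66, and with the replicate block from 0.919 to 1.36. Within replicates 1, 2 and 3 the log2 differences were 0.41, -0.13 and 0.20, so that no direction was shared.

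Notch1 and Notch2 had dim probes in both genotypes. Notch1 (probe 915741) read 0.214, 0.777 and 0.371 in knockout against 0.481, 0.476 and 0.411 in wildtype, all below the array median, and the 3 wildtype readings lay inside the range of the knockout readings. Its means were almost equal, 0.454 ± 0.291 in knockout and 0.456 ± 0.0391 in wildtype (SD, n = 3 each). The log2 difference of -0.20 comes from averaging on the log scale, and within replicates it was -1.17, 0.71 and -0.15. Notch2 (probe 703703), a receptor with a role in kidney, bile duct and B cell development, read 0.194, 0.594 and 0.453 in knockout against 0.528, 0.332 and 0.229 in wildtype. It was lower in knockout within replicate 1 (-1.44 on the log2 scale) and higher within replicates 2 and 3 (0.84 and 0.98). The intervals of the ratio of knockout to wildtype were wide, 0.344 to 2.20 for Notch1 and 0.413 to 2.88 for Notch2, and still 0.396 to 1.91 and 0.456 to 2.61 with the block. Detection flags are not used here, so readings this far down the array, between percentiles 1.32 and 42.8 for these 2 genes, cannot be called present or absent.

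Notch1 also lies near the altered locus. In the GRCm38.p6 assembly the start sites of Notch1 and Nrarp are 1.32 megabases apart on chromosome 2, whereas those of Dll4 and Jag1, on the same chromosome, are 94.1 and 112 megabases from that of Nrarp. All 3 genes overlapped between the genotypes.

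Notch4 (probe 929016) read 2.06, 0.995 and 0.725 in knockout against 1.38, 0.506 and 0.735 in wildtype. The replicate 1 array was the highest in each genotype, and the readings straddled the array median. Its log2 difference of 0.51 (SE 0.600) was the largest among the 10 genes on this scale. It was not the largest with an offset of 1 (0.25, against 0.32 for Dlk1) or with array weights (0.23, against 0.70 for Notch2). Nor was it with replicates 2 and 3 only (0.48, against 0.91 for Notch2), or without knockout replicate 1 or 2 or wildtype replicate 1 or 2. Notch4 had the smallest unadjusted p of the 10 genes in the fit without the block (0.421, limma, adjusted p 1.00). The interval of the ratio, 0.542 to 3.75, includes both a lower and a more than doubled level, and with the block it was 0.714 to 2.84. Within replicates the log2 differences were 0.58, 0.98 and -0.02.

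**Figure D2:**
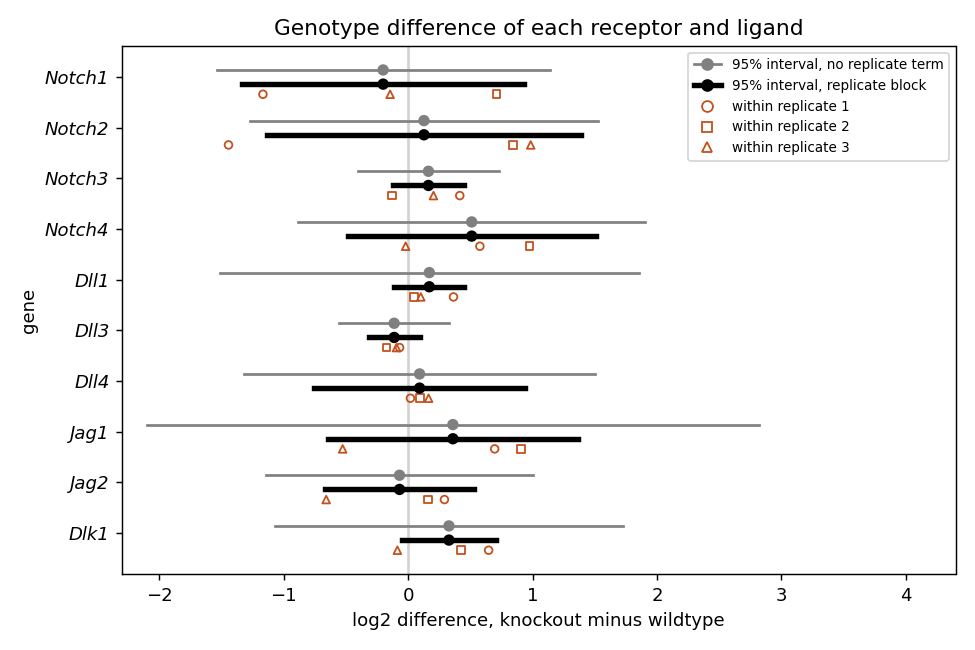
Log2 difference of knockout minus wildtype for each gene, with the 95% interval of the limma fit without a replicate term (grey), the 95% interval with the replicate block (black), and the difference within each replicate number (open markers). Every interval includes 0, the block shortens that of Dll1 to between -0.11 and 0.45, and Dll1, Dll3 and Dll4 are the genes whose 3 open markers share 1 side of 0.

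Among the ligands, the Delta-like genes of the presomitic mesoderm, Dll1 and Dll3, gave the narrowest limits on a genotype difference in the blocked fit with an intensity trend. Without the trend the blocked SE was 0.199 for Dll3, 0.200 for Dll4 and 0.209 for Dll1, so the place of Dll1 depends on that setting. The 250 bases before an annotated start of Dll1 and of Dll3 are shown first, with those of Hes5, the Notch target gene that was higher in knockout, for comparison. The windows are from RefSeq on GRCm38.p6, read 5′ to 3′ on the gene's strand. Capitals mark the core letters recognised by RBPJ (TGGGAA) and a site bound by Hes repressors (CACGCG), on either strand. The Dll1 window is that of the more upstream of its 2 listed starts, at chr17:15376933-15377182 on the minus strand, the Dll3 window is at chr7:28301786-28302035 on the minus strand, and the Hes5 window is at chr4:154960673-154960922 on the plus strand.
Dll1: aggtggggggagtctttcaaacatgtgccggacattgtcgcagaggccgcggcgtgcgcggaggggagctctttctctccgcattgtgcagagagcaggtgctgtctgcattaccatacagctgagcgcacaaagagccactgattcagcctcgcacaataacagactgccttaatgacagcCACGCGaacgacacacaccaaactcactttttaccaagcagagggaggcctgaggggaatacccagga
Dll3: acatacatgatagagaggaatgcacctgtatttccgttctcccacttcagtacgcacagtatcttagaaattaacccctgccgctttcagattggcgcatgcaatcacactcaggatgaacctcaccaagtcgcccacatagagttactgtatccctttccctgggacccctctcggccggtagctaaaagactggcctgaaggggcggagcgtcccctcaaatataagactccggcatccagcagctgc
Hes5: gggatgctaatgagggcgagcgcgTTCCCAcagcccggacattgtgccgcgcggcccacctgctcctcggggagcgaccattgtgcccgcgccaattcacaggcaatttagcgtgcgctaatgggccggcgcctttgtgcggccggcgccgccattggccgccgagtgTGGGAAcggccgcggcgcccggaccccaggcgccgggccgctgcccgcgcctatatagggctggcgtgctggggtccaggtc

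All 10 genes had an entry among the promoter windows, 11 windows in all because Dll1 has 2. TGGGAA, searched on both strands, was in 0 of the 11 windows and in 21.6% of all 32851 windows of the same length. The Hes5 window holds it at 2 places and the window of Nrarp, also a Notch target, at 0, so the string does not set Notch targets apart here. CACGCG was in 4 of the 11 windows, those of Dll1, Dll4, Jag1 and Notch2, and in 7.62% of all windows. For Dll1 it was in the window shown and not in that of the other listed start. The other motifs searched on both strands, GGTGTGA (the core bound by T-box factors such as Tbx6), CACGTG (the E-box) and TATAAA, were in 0 of the 11 windows and in 3.33%, 6.02% and 12.4% of all windows. No motif contains another, and the windows of these genes are mostly richer in G and C, 52.0% to 87.2%, than the median window with 52.4%. A match is a string of letters and not a site shown to be bound, and its absence from 250 bases says nothing of sites elsewhere.

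Dll3 (probe 917212) had the brightest readings of the 10 probes. It read 471, 536 and 541 in knockout against 494, 605 and 578 in wildtype, between percentiles 98.4 and 99.0 of the arrays. Both replicate 1 readings were the lowest of their genotype, and the knockout array was below the wildtype array within each replicate number. The means were 516 ± 39.2 in knockout and 559 ± 57.9 in wildtype (SD, n = 3 each), and the log2 difference was -0.11 (SE 0.190). The interval of the ratio was 0.682 to 1.26, and 0.803 to 1.07 with the block. The narrower interval rests on the intensity trend of the fit. Without the trend the blocked SE was 0.199 against 0.0896, so ratios below 0.803 are not excluded. Within replicates the log2 differences were -0.07, -0.18 and -0.09. Dll3 is also the one gene of the 10 that was lower in knockout in replicate 1 and also lower, without overlap, among the 4 arrays of replicates 2 and 3, a pattern met by 6.87% of all probes, with 8.65% showing its mirror image. It did not pass either fit (limma adjusted p 1.00 without and 0.999 with the block).

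Dll1 (probe 577592) read 129, 27.5 and 30.8 in knockout against 100, 26.7 and 28.7 in wildtype. In each genotype the replicate 1 array was several times brighter than the other 2, and among replicates 2 and 3 the genotypes overlapped, since knockout replicate 2 lay below wildtype replicate 3. Its means of 62.4 ± 57.6 in knockout and 51.8 ± 41.9 in wildtype (SD, n = 3 each) therefore carry large errors. The log2 difference was 0.17 with an SE of 0.725 without the block and 0.123 with it. The interval of the ratio shrank from 0.350 to 3.62 without the block to 0.926 to 1.37 with it. Without the intensity trend the blocked SE was 0.209. Within replicates the log2 differences were 0.36, 0.04 and 0.10. Dll1, Dll3 and Dll4 were the 3 genes with 1 sign in all replicates by number, while 23.7% of all probes had 1 sign. The values gave little support for matching replicates 2 and 3 by number rather than crosswise. Set against wildtype replicate 3, knockout replicate 2 was lower for Dll1 and Dll4, so a crosswise match would break their shared sign.

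Dll4 (probe 722937), a ligand of sprouting vessels, read 2.09, 0.741 and 1.60 in knockout against 2.07, 0.695 and 1.43 in wildtype. The arrays of 1 replicate number resembled each other more than those of 1 genotype, and the log2 difference was 0.09 (0.02, 0.09 and 0.16 within replicates). The interval of the ratio was 0.401 to 2.83, and 0.592 to 1.92 with the block.

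Jag1 (probe 299270) read 5.29, 0.652 and 0.709 in knockout against 3.27, 0.347 and 1.02 in wildtype, so that the replicate 1 arrays lay well above the median and 3 of the other 4 below it. Its log2 difference was 0.36 (SE 1.06), with 0.70, 0.91 and -0.53 within replicates. The interval of the ratio, 0.234 to 7.05, was the widest of the 10 genes, and 0.638 to 2.58 with the block. Jag2 (probe 851162) read 6.97, 3.48 and 3.16 in knockout against 5.69, 3.12 and 4.98 in wildtype, above the median throughout. Its log2 difference was -0.07 (SE 0.461), with 0.29, 0.16 and -0.66 within replicates, and the interval of the ratio was 0.454 to 2.00 without and 0.630 to 1.44 with the block.

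Dlk1 (probe 928178) read 65.9, 20.5 and 17.4 in knockout against 42.1, 15.3 and 18.5 in wildtype. As for Dll1, the replicate 1 arrays were the brightest, and among replicates 2 and 3 the lowest and highest readings overlapped between genotypes. The log2 difference was 0.33 (SE 0.602 without and 0.165 with the block), with 0.65, 0.42 and -0.09 within replicates. Its unadjusted p with the block, 0.0795 in the limma fit (adjusted p 0.999), was the smallest of the 10 genes in that fit. The interval of the ratio was 0.476 to 3.31, and 0.967 to 1.63 with the block.

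Single-gene exact permutation tests of the 3 against 3 log2 values gave two-sided p-values from 0.4 (Dll3) to 1 (Jag2), where 0.1 is the smallest that this design allows. Paralogues were also compared as a ratio within each array, which a single scaling factor per array does not change. The ratio is not free of differences between arrays in the spread of intensities. The log2 ratio of Dll3 to Dll1 was 1.87, 4.28 and 4.14 in knockout against 2.30, 4.50 and 4.33 in wildtype. It was lower in knockout within each replicate number, by -0.43, -0.22 and -0.20, but the difference between replicates was many times larger. The mean difference was -0.28 (exact permutation test, two-sided, p = 0.5). For Jag1 to Jag2 the mean difference was 0.43 (exact p = 0.6) and for Notch1 to Notch2 it was -0.33 (exact p = 0.4). Adjusted over these 3 ratios, p was 0.6 for each. A ratio of 2 probes on an array also reflects how well each probe hybridises, so the order of the probes by brightness is not an order of transcript number between genes.

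For all 10 genes the average difference of replicate 1 from replicates 2 and 3 was larger in size than the difference between genotypes. The share of all probes with this order was not counted, so whether it is particular to these genes is not known. For Notch1 (-1.33 in knockout and 0.12 in wildtype) and Notch2 (-1.42 and 0.94) the average joins opposite signs, so the genotypes shared no shift. For 6 of the 10 genes, Notch4, Dll1, Dll4, Jag1, Jag2 and Dlk1, both replicate 1 arrays were brighter than all 4 arrays of replicates 2 and 3, and 25.2% of all probes had this pattern. Dll3 had the opposite pattern, with both replicate 1 arrays below the other 4, as did 34.4% of all probes. On average over the genotypes, replicate 1 exceeded the mean of replicates 2 and 3 by 2.71 on the log2 scale for Jag1, by 2.00 for Dll1, by 1.56 for Dlk1 and by 1.23 for Notch4. The difference was close in the 2 genotypes for Dll1, 2.15 in knockout and 1.86 in wildtype. For Dll3 it was -0.23 and for Notch3 -0.28, where the median of all probes was -0.33. The range from the 10th to the 90th percentile of all probes was -1.47 to 1.66, so Jag1 and Dll1 lay above it and the other 8 genes within it. Among the 15666 probes above the median level it was -0.90 to 2.24 with a median of 0.34, so that Dll1 lay within that range and Dll3 and Notch3 below that median. Jag1 was exceeded by 2.69% of all probes and Dll1 by 6.86%.

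**Figure D3:**
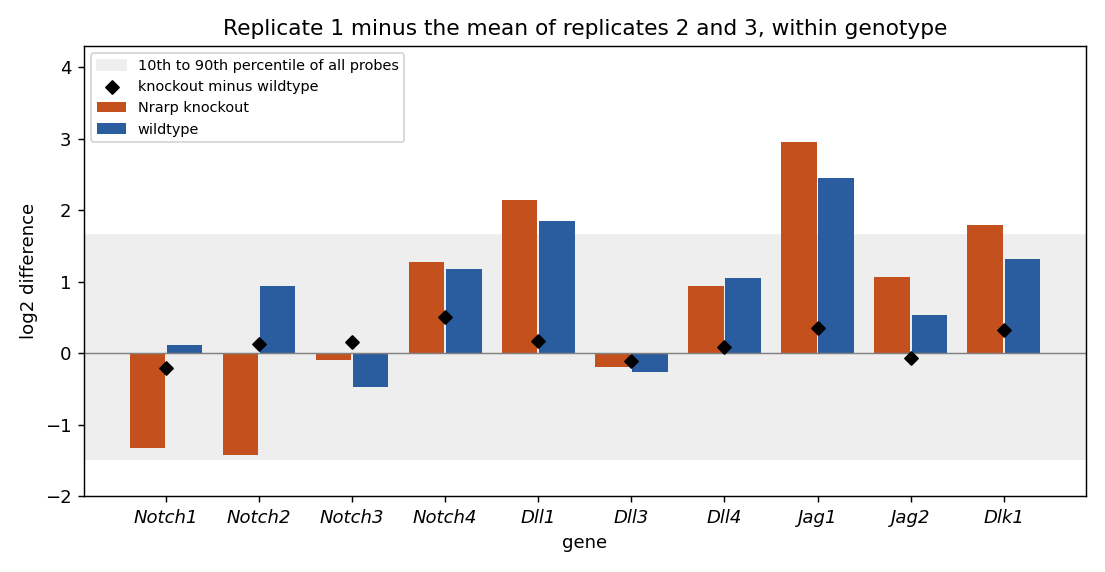
Bars show replicate 1 minus the mean of replicates 2 and 3 on the log2 scale within knockout and within wildtype, and diamonds show knockout minus wildtype. The grey band spans the 10th to the 90th percentile of all probes for the average over the 2 genotypes, so it is not the range of single bars. The bars of Dll1 (2.15 in knockout and 1.86 in wildtype) and Jag1 (2.96 and 2.45), and the knockout bar of Dlk1 (1.80), leave the band, while no diamond exceeds 0.51. The average of Dlk1 over the genotypes (1.56) lies inside it.

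Markers of other cell types that are known to express these genes were read beside this pattern. The 15 measured endothelial markers summed to 118 to 252 in knockout and 133 to 228 in wildtype, with both highest sums on replicate 1, and 11 of the 15 were higher there. The endothelial adhesion gene Pecam1 read 12.5, 0.503 and 2.03 in knockout against 11.4, 0.873 and 0.914 in wildtype, and the endothelial receptor gene Kdr 47.9, 65.9 and 66.4 against 50.5, 96.1 and 74.4, which is the opposite order. The 9 mural and smooth muscle markers summed to 19.3 to 36.0 in knockout and 18.5 to 33.9 in wildtype, the 13 surface ectoderm and limb ridge markers to 395 to 511 and 431 to 489, and the 11 neural markers to 104 to 237 and 97.8 to 234. The highest sum of each of these 3 lists was on replicate 1 in both genotypes too, although only 3 of the 11 neural markers were higher there. The 11 gut and liver markers (38.5 to 62.5 in knockout and 40.7 to 65.9 in wildtype) also had their highest sum on replicate 1 in both genotypes, with 3 of the 11 higher there. The presomitic mesoderm markers had their lowest sum on replicate 1 in both genotypes, 1156 in knockout and 1069 in wildtype. However, 6 of the 10 were higher there, and the sum on wildtype replicate 3 was close, 1072.5. Tbx6 weighs most in this sum and was lowest on replicate 1, with 487, 848 and 802 in knockout against 416, 745 and 657 in wildtype. The sum therefore does not show that replicate 1 held less of this tissue. The 11 somite markers (926 to 951 in knockout and 768 to 954 in wildtype) were highest on replicate 1 in knockout and lowest there in wildtype. Since 0 of 33012 probes were at or below 0 on any array, a value above 0 does not show that a marker was present. The endothelial cadherin gene Cdh5 was above the median on 0 of 6 arrays. The part of these cell types, and of the wider spread of intensities on replicate 1, in the pattern was not tested.

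The rest of the pathway was read from lists by role, which held 42 measured genes besides the receptors and ligands, Nrarp and Dtx1 included, which are also among the Notch targets described last. Their log2 differences were above 0 for 21 and below 0 for 21, and the median was 0.00. Without the block 0 passed, and with it only Nrarp itself, which was lower in knockout (log2 difference -4.03, limma adjusted p = 0.00042).

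Among 8 genes for other or ligand-like Notch-binding proteins, 5 had higher and 3 had lower mean log2 values in knockout (median difference 0.24). The smallest unadjusted p-values were those of Mfap5 (0.98), a microfibril protein, and Ccn3 (0.54), a matricellular protein, and both were dim, with means of 0.388 and 0.595 in knockout and 0.190 and 0.364 in wildtype. The 7 glycosylation enzymes, which add or extend sugars on the EGF repeats of the receptors, had a median of -0.05. Eogt differed by 0.37 and Mfng, a Fringe glycosyltransferase, by -0.23. Of the 4 ligand endocytosis genes all were positive, with a median of 0.13, among them the ubiquitin ligase genes Mib1 (0.13) and Neurl1a (0.39).

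For the 9 receptor cleavage genes the median was -0.01. The presenilin gene Psen2 read 3.32, 3.81 and 2.97 in knockout against 3.77, 4.52 and 4.52 in wildtype, a log2 difference of -0.34, and the protease gene Adam17 differed by 0.65. The 5 nuclear complex genes had a median of -0.03. Rbpj, the DNA-binding partner of all 4 receptors, read 33.1, 23.9 and 33.5 in knockout against 30.4, 26.4 and 27.6 in wildtype and differed by 0.09, and the acetyltransferase gene Kat2b by -0.64. Among the 9 trafficking and turnover genes, Nrarp included, the median was -0.16. The ubiquitin ligase gene Dtx1 read 1.75, 1.53 and 1.17 in knockout against 1.14, 0.339 and 0.508 in wildtype. Its groups did not overlap, and its log2 difference of 1.33 did not pass over all probes (limma adjusted p 1.00 without and 0.999 with the block).

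The 13 measured Notch targets had log2 differences above 0 in 8 cases and below 0 in 5 (median 0.21). With the block 2 passed, Nrarp, which was lower, and Hes5, which was higher in knockout. Hes5, a repressor gene that is a direct target of Notch, read 50.02, 39.4 and 33.3 in knockout against 10.97, 8.26 and 9.49 in wildtype, a log2 difference of 2.09 (limma adjusted p = 0.0058 with and 1.00 without the block). Its 3 within-replicate differences, 2.19, 2.25 and 1.81, lie above the upper bound of every blocked interval of the 10 receptors and ligands, the highest of which is 1.51 for Notch4. Without the block this does not hold. The upper bound was then 2.82 for Jag1, above all 3 Hes5 differences. For Notch4 it was 1.91 and for Dll1 1.86, above the Hes5 difference of replicate 3.

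**Figure D4:**
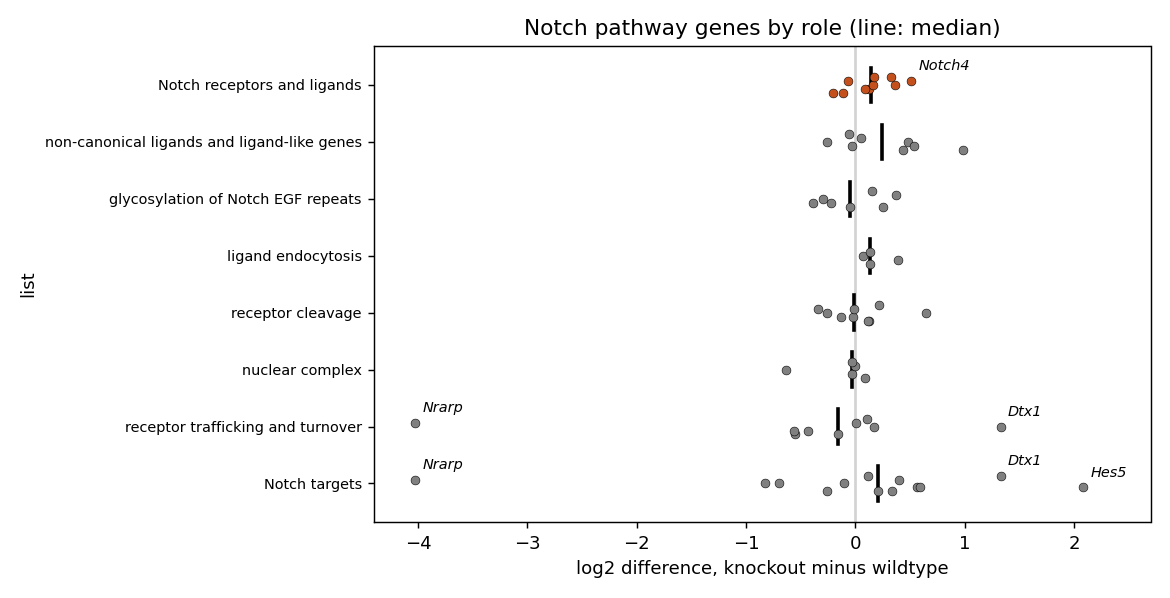
Log2 difference of knockout minus wildtype for each measured gene of the receptor and ligand list (orange) and of 7 other lists by role, with the median of each list as a line. The receptors and ligands lie between -0.20 and 0.51, whereas Nrarp is at -4.03, Dtx1 at 1.33 and Hes5 at 2.09. Nrarp and Dtx1 stand in both of the last lists.

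The genes whose log2 values followed those of 3 receptors and ligands most closely over the 6 arrays were picked by Pearson correlation among single-gene probes at or above the median level. For Dll3 these were Socs4, Gkap1 and Tshz3, with correlations of 0.991, 0.986 and 0.985 over 6 arrays. For Notch1 they were Panx3, Map3k8 and Was, at 0.985, 0.977 and 0.962, although the Notch1 probe lay below the median on all 6 arrays. Whether such values exceed what the highest of 8618 candidates would reach without any relation was not tested. For Dll1 they were Acot7, Pes1 and Npepl1, at 0.9996, 0.9995 and 0.9993, and these values rest on the separation of the replicate 1 arrays. A correlation above 0.99 was reached by 436 of 8617 probes with Dll1, by 1 with Dll3 and by 0 of 8618 with Notch1. All points share the same arrays, scaling and replicate structure.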

How the data were processed

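Total RNA was turned into digoxigenin-labelled cRNA and read on Applied Biosystems arrays, per the labels' protocols. The array is described as human in the labels, whereas organism and probe annotation are mouse. The deposited values are intensities on a linear scale, which the authors had scaled to array medians near 1. Background correction, flags and software: not given in the sources used here. Of 33012 probes, 14411 had 1 gene in the annotation, 247 had several and 18354 were unnamed here.

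All values were converted to log2 without further normalization and fitted by genotype with limma 3.58.1 in R 4.3.3 (eBayes with an intensity trend, two-sided, Benjamini-Hochberg over all probes). Intervals of 95% come from the fits without and with a replicate block. Tables and figures used Python 3.11.15 with pandas 2.3.3, numpy 2.4.6 and matplotlib 3.10.9, and the fits were tested on simulated data. The number of arrays limits the precision.

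Deviations from group means correlated by 0.757, 0.442 and 0.374 within replicate numbers 1 to 3, so the numbers were taken as pairing the arrays. Across numbers 2 and 3 the correlations were 0.419 and 0.397, so the pairing rests on replicate 1 and the labels tie no number to a litter or day.

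The genes and lists were chosen with earlier results of these data known. Named were all 10 receptors and ligands, the genes called or the 2 with the smallest p in each pathway list, Nrarp, the markers of highest level (Tbx6), and the 3 genes most correlated with Dll1, Dll3 and Notch1. Pecam1, Kdr and Cdh5 were chosen after their values were seen. Lfng, among other listed genes, has no named probe here.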

Additional observations from a re-analysis of the deposited data

How the results depend on the processing

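The 3 arrays per genotype, and the wide range of the replicate 1 arrays, limit what these values can resolve, above all for probes near or below the array median, where background is part of the signal. None of the 10 receptors and ligands passed in any of 15 alternatives, of which the one without dim probes kept 7. Over all probes, 1 was called with array weights, 2 with the replicate block and 2 with the replicate block on replicates 2 and 3 only, and these were the same counts as among the pathway genes and Notch targets (1, 2 and 2 of 53). In the other alternatives 0 probes were called by limma, and the number with an unadjusted p under 0.05 ran from 47 with centring on 75th percentiles to 1492 with the replicate block and no intensity trend, against 217. With array weights it was 3145. The log2 difference of Notch1 was 0.28 with replicates 2 and 3 only, and that of Jag1 -0.0085 with array weights. The widths of the blocked intervals depended on the intensity trend. Without it the blocked SE was larger for Notch2, Notch3, Dll1, Dll3, Jag2 and Dlk1 and smaller for Notch1, Notch4, Dll4 and Jag1. Notch3, Notch4 and Dll3 kept their sign when any array was left out (0.01 to 0.29, 0.08 to 0.91 and -0.20 to -0.05).

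For the other 7 genes, leaving out 1 array, which unbalances the replicates, turned the sign. Without knockout replicate 1 the log2 difference was 0.24 for Notch1, -0.55 for Dll1, -0.22 for Dll4, -0.63 for Jag1 and -0.27 for Dlk1. Without knockout replicate 2 it was -0.21 for Notch2 and 0.07 for Jag2, and without knockout replicate 3 it was -0.01 for Notch2, -0.03 for Dll4 and 0.14 for Jag2. Without wildtype replicate 1 it was 0.11 for Jag2, without wildtype replicate 2 it was -0.17 for Dll1, -0.34 for Dll4 and -0.44 for Jag1, and without wildtype replicate 3 it was -0.16 for Notch2, -0.11 for Dll1 and 0.01 for Jag2. The ranges were -0.69 to 0.24 for Notch1, -0.21 to 0.60 for Notch2, -0.55 to 0.79 for Dll1, -0.34 to 0.53 for Dll4, -0.63 to 1.18 for Jag1, -0.43 to 0.14 for Jag2 and -0.27 to 0.77 for Dlk1. The ratio of Dll3 to Dll1 ranged from -0.99 to 0.50, that of Jag1 to Jag2 from -0.20 to 1.07 and that of Notch1 to Notch2 from -0.60 to -0.11. Another probe of the same gene could not be tried, since each gene has 1.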
